A study of Homo sapiens with 6 samples.

Results

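The lysosome and autophagy genes are a set of 35 genes picked by name, covering the enzymes, membrane proteins and proton pump of the lysosome, the core machinery of autophagy, and the transcription factors TFEB and TFE3. The set was chosen with earlier results of these data known, so its shares beside those of all genes are descriptive. The genes were matched by NCBI Gene ID, and all 35 were found among the 16623 genes measured. RNA-seq was carried out on MDA-MB-231 cells, an established triple-negative breast cancer line, treated with PCI-24781, an inhibitor of histone deacetylases, or with its solvent DMSO. At 24 h and again at 48 h, 1 library was made from cells in DMSO, 1 from cells at 100 nM and 1 from cells at 200 nM PCI-24781. With 1 library for each of the 6 conditions, no difference has a replicate check, no test was run and no p-value is given.

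Lysosomes are acidic organelles that break down proteins, lipids, glycans and whole organelles. The V-ATPase pumps protons into their lumen, soluble hydrolases work at the resulting low pH, and membrane proteins and transporters protect the organelle and export its products. Autophagy encloses cytoplasm in a double membrane that fuses with the lysosome, and TFEB and TFE3 bind a short promoter element shared by many of these genes and raise their transcription.

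Expression was given as FPKM, a count of fragments corrected for transcript length and for the fragments mapped in the library. The depth, read from the spacing of the low values of short genes, ranged from about 15700000 fragments (200 nM 48 h) to about 18000000 (100 nM 48 h). Allowing 150 bases for fragment length moved this range to 18300000 to 20900000. A change is the difference in log2(FPKM + 1) from the DMSO library of the same time, and a gene is called higher or lower when this reached 1.5-fold (0.58 on the log2 scale) and its FPKM reached 1 in either library. All 35 genes passed the minimum in every comparison. TFEB had the lowest FPKM of the 35 in each library and rested on about 86.0 fragments in DMSO 24 h, and the pseudocount of 1 understates its changes.

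The cells were checked against markers of the line. VIM, CD44, AXL and MSN, which mesenchymal-like breast cancer lines express strongly, were abundant, with VIM between 1629.38 and 2053.39 FPKM. SPARC, also listed as high, was not, with 0.44 to 1.97 FPKM. The receptor genes ESR1 and PGR were at most 0.04 FPKM, CDH1 at most 0.39 and GATA3 at most 1.03, while ERBB2 lay between 13.16 and 21.36. Macrophages are rich in lysosomes, and the summed FPKM of 7 macrophage markers was 4.10, 6.44 and 5.96 in DMSO, 100 nM and 200 nM at 24 h and 6.14, 7.18 and 6.03 at 48 h. LYZ was the most abundant of them in each library, with 2.37 to 4.54 FPKM. PTPRC had 0.76 to 1.01, AIF1 at most 0.23, and ITGAM and TYROBP were listed at 0 or at no more than 0.12. CD163, also listed, was not found among the genes measured. CD14, at 0.28, 0.62 and 1.12 FPKM at 24 h and 1.03, 1.42 and 1.47 at 48 h in the same order, was called higher at 200 nM 24 h (0.73) and in DMSO 48 h against DMSO 24 h (0.67), as several of the 35 genes were. LYZ was called higher at 100 nM 24 h (0.72) and CSF1R at 100 nM 48 h (0.70, from 0.88 to 2.06 FPKM). Of 5 fibroblast markers, the summed FPKM ranged from 1.86 at 100 nM 48 h to 6.98 at 200 nM 24 h, most of it COL1A1. COL1A2 lay between 0.11 and 0.30, DCN did not exceed 0.07, and LUM and PDGFRA did not exceed 0.06. COL1A1 was called higher at 200 nM 24 h (1.53, from 1.66 to 6.68 FPKM) and at 200 nM 48 h (0.69, from 2.55 to 4.72). The part of these few transcripts in the results was not tested. The samples were cultures of a single line. In bulk RNA, a change in the share of its cells in a given state and a change in the RNA per cell cannot be told apart.

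The DMSO libraries differed from each other, and this bears on every result below. Of the 35 genes, 12 were higher in the 48 h library than in the 24 h library (34.3%), against 8.49% of the 11490 genes tested, and 0 were lower, against 1.94%. The 12 were TFEB, CTSD, CTSH, TPP1, GAA, PSAP, NPC1, NPC2, SQSTM1, GABARAPL1, ULK1 and WIPI1. For CTSD, TPP1, GAA, NPC1, SQSTM1, ULK1 and WIPI1, every library at 48 h was above every library at 24 h. For TFEB, CTSH, PSAP, NPC2 and GABARAPL1 the libraries of the 2 times overlapped. Scaled by median-of-ratios factors, CTSH dropped just below 1.5-fold, which left 11 (31.4%, beside 7.77% of all genes). The median difference was 0.29 on the log2 scale, and 0.00 over all genes tested. DMSO 24 h held the lowest of the 6 values for 19 of the 35 genes, and for 27.1% of the 11893 genes that reached an FPKM of 1. The highest value was at 100 nM 48 h for 12 of the 35 (17.1% of all genes), at 200 nM 48 h for another 12 (15.0%) and at 200 nM 24 h for 9 (24.7%). The 35 genes together held 0.465%, 0.492% and 0.570% of the summed FPKM in DMSO, 100 nM and 200 nM at 24 h. At 48 h their share was 0.667%, 0.720% and 0.711% in the same order. With 1 DMSO library per time, an effect of time and a difference between libraries cannot be told apart. In the order DMSO, 100 nM, 200 nM, 1708, 1380 and 1130 genes were at 0 FPKM at 24 h and 1391, 1614 and 1178 at 48 h, so the count fell with dose at 24 h and not in order at 48 h. The labels were used as given, and whether any were exchanged, which would alter the meaning of each comparison with DMSO, was not tested.

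At 24 h, all called changes of the 35 genes were upward, and there were more at the higher dose. At 200 nM, 8 of the 35 genes were higher (22.9%), beside 12.5% of 11660 genes tested, and 0 were lower, beside 7.58%. These were TFEB, CTSH, NEU1, PSAP, NPC2, ATP6V0D1, ATP6V1A and GABARAPL1. At 100 nM, CTSH, NPC2 and GABARAPL1 were higher, 3 of 35 or 8.57%, which is close to the 5.54% of 11475 genes tested, and 0 were lower, beside 1.25%. Some calls depended on the pseudocount or scale. With a pseudocount of 0.1, TFEB was also called at 100 nM, for 4 of 35 (11.4%, beside 8.56% of all genes), and MAN2B1 at 200 nM, for 9 (25.7%, beside 15.9%). In TPM, TFEB was added at 100 nM (11.4%, beside 7.42%), and MAN2B1 and MAP1LC3B at 200 nM, for 10 (28.6%, beside 14.8%). Median-of-ratios scaling went the other way at 200 nM, where NEU1, ATP6V0D1 and ATP6V1A were no longer called, for 5 (14.3%, close to the 11.1% of all genes). The median over the 35 genes was 0.10 with the lower dose and 0.30 with the higher, and 0.01 over all genes tested in each. Counting changes of any size, 23 of the 35 genes rose from DMSO to 100 nM to 200 nM at 24 h, an order seen in 32.3% of all genes, and 4 fell in that order, beside 30.4%.

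At 48 h, none of the 35 genes reached 1.5-fold in either direction. At 100 nM, 0.504% of 11514 genes tested were higher and 1.75% lower, and at 200 nM, 1.53% of 11665 were higher and 0.463% lower, so few genes of any kind were called at this time. With a pseudocount of 0.1 these shares rose to 1.16% and 3.22% at 100 nM and to 3.42% and 1.10% at 200 nM, and still none of the 35 genes was called. The median over the 35 genes was 0.06 with the lower dose and 0.12 with the higher, against -0.01 and 0.01 over all genes. The widest changes at 100 nM were in NEU1, at 0.51, and NPC2, which fell by 0.44, and at 200 nM in PSAP, at 0.39, and CTSL, which fell by 0.33.

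**Figure D1:**
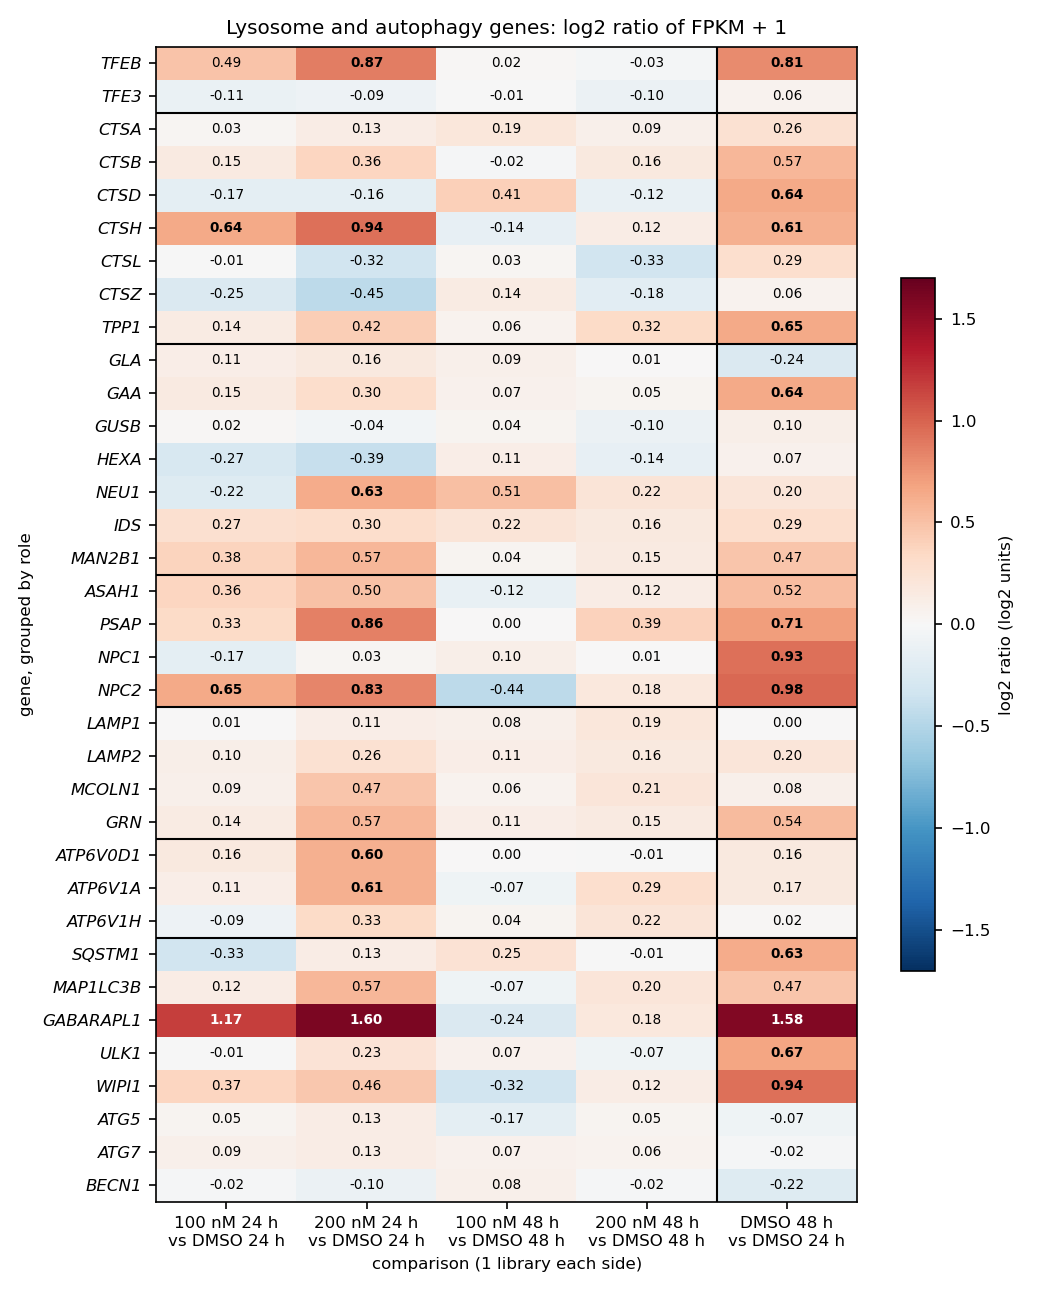
Difference in log2(FPKM + 1) for each of the 35 genes (rows, grouped by role) in each comparison of 2 libraries (columns), in log2 units, with called values in bold. Called values stand in the columns for 200 nM 24 h, 100 nM 24 h and DMSO 48 h against DMSO 24 h, with GABARAPL1 the darkest row, and in neither PCI-24781 column at 48 h.

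Because the 24 h comparisons and that between the DMSO libraries all use DMSO 24 h, each PCI-24781 library was also set against the DMSO library of the other time, a comparison chosen after the data were seen that mixes dose with time. Against DMSO 48 h, none of the 35 genes was higher at 100 nM 24 h (0.900% of all genes) and 4 were lower (2.77%), namely CTSD, NPC1, SQSTM1 and ULK1. At 200 nM 24 h, none was higher (4.47% of all genes) and CTSD, CTSL and NPC1 were lower, 3 of 35 beside 5.24%. Without the DMSO 24 h library, then, none of the 8 genes called at 200 nM 24 h was called higher, and the median over the 35 genes was 0.02. At 200 nM 24 h and in DMSO 48 h, ATP6V0D1 had 45.11 and 32.91 FPKM and ATP6V1A 17.38 and 12.48. NEU1 had 29.23 and 21.47 in that order, and CTSH 16.15 and 12.69. PSAP (267.96 and 240.83), TFEB (4.54 and 4.34) and GABARAPL1 (27.96 and 27.52) lay closer, and NPC2 was lower (326.07 and 362.92). Against DMSO 24 h, 12 of the 35 were higher at 100 nM 48 h (6.88% of all genes) and 16 at 200 nM 48 h (12.3%), with 0 lower in each (2.62% and 5.19%).

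**Figure D2:**
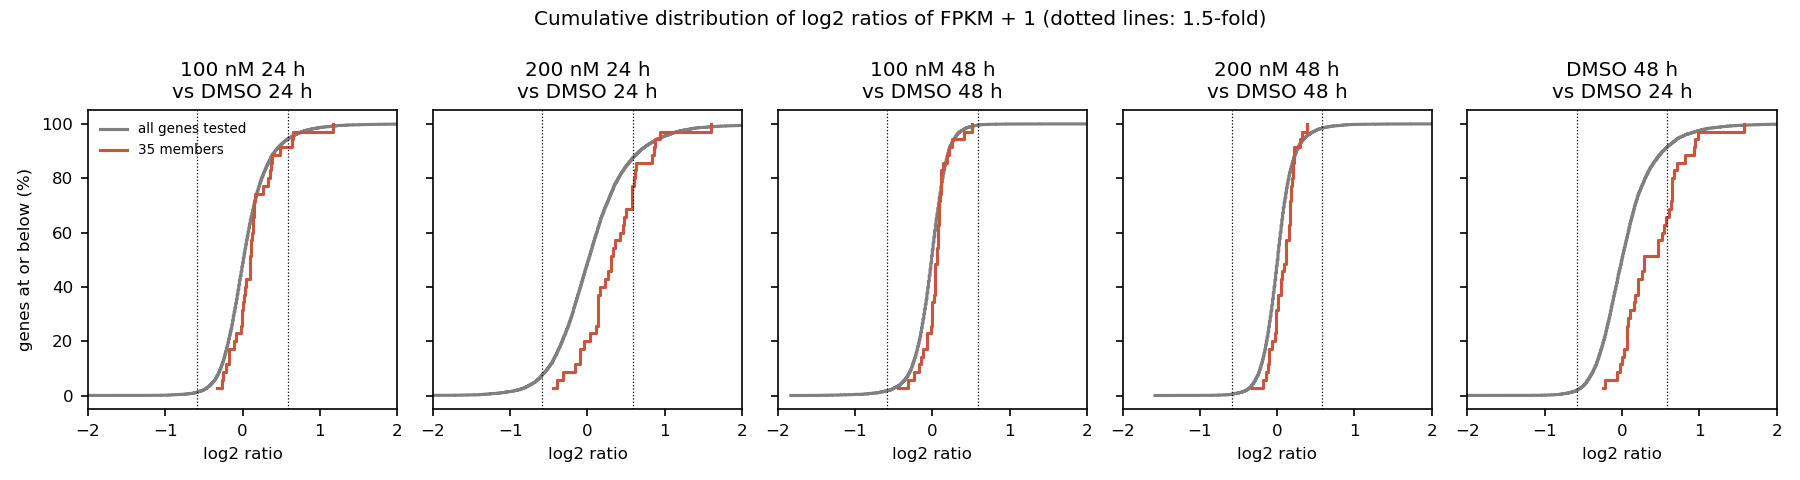
Cumulative percentage of genes (vertical axis) at or below each log2 ratio of FPKM + 1 (horizontal axis) in the 5 comparisons, for the 35 lysosome and autophagy genes and for all genes tested, with dotted lines at 1.5-fold. The curve of the 35 genes lies to the right of the other by the most at 200 nM 24 h (median 0.30 against 0.01) and in DMSO 48 h against DMSO 24 h (0.29 against 0.00).

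The regulators TFEB and TFE3 are related transcription factors that move to the nucleus when the kinase complex mTORC1 is inactive. TFEB (NCBI Gene ID 7942, chromosome 6 from 41651716 to 41703997 in hg19) had 2.04, 3.28 and 4.54 FPKM in DMSO, 100 nM and 200 nM at 24 h and 4.34, 4.42 and 4.23 at 48 h. It was low in DMSO 24 h, intermediate at 100 nM 24 h and between 4.23 and 4.54 in the other libraries. At 24 h the difference was 0.49 with the lower dose and 0.87 with the higher. Without a pseudocount, the log2 ratio of FPKM at 200 nM 24 h was 1.15, with an exact 95% interval of 0.78 to 1.54 from the approximate fragment numbers, which covers counting error only. TFE3, more than 10 times as abundant, was flat, at 69.99, 64.76 and 65.70 FPKM in DMSO, 100 nM and 200 nM at 24 h and 73.19, 72.43 and 68.11 at 48 h. Levels of mRNA say nothing of where either protein was in the cell.

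Among the proteases, the cathepsins and TPP1 did not move as a block with PCI-24781 against DMSO of the same time. All 7 were above 0 between the DMSO libraries, with a median of 0.57, and 3 were called higher (42.9%, beside 8.49% of all genes). CTSH, an aminopeptidase (NCBI Gene ID 1512, chromosome 15 from 79214092 to 79237440 in hg19), went from 7.97 FPKM in DMSO through 12.97 to 16.15 with dose at 24 h, and stood at 12.69, 11.42 and 13.87 in the matching libraries at 48 h. It was lowest in DMSO 24 h and highest at 200 nM 24 h, and the 48 h libraries lay between these. Its changes at 24 h were 0.64 and 0.94. CTSD, the main aspartic protease of the lysosome, was the most abundant of the 35 genes in every library. It had 413.87, 367.02 and 369.42 FPKM in DMSO, 100 nM and 200 nM at 24 h, and 646.77, 862.44 and 595.92 at 48 h. All 3 libraries at 48 h were thus above all 3 at 24 h, and within a time no PCI-24781 library reached 1.5-fold. The other proteases were CTSA, CTSB, CTSL, CTSZ and TPP1, whose changes at 200 nM 24 h ran from -0.45 in CTSZ to 0.42 in TPP1. CTSZ and CTSL, at -0.45 and -0.32, lay on the lower side there without being called.

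The glycosidases and the sulfatase IDS remove sugars and sulfate from glycans and glycolipids. NEU1, the lysosomal sialidase, was the gene among these 7 called against DMSO of the same time. At 24 h it had 18.57, 15.76 and 29.23 FPKM in DMSO, 100 nM and 200 nM, then 21.47, 31.05 and 25.21 at 48 h. The high libraries were 200 nM 24 h (0.63) and 100 nM 48 h (0.51), and the lowest was 100 nM 24 h (-0.22), so it followed neither dose nor time in order. NEU1 is placed on an alternate haplotype of chromosome 6 in the files, and how reads were shared between copies of that region is not given in the sources used here. GLA, GAA, GUSB, HEXA, IDS and MAN2B1 changed by -0.39 (HEXA) to 0.57 (MAN2B1) at 200 nM 24 h, and GUSB, which has pseudogene copies, is uncertain for that reason. GAA, the acid glucosidase that degrades glycogen, was called between the DMSO libraries, at 0.64, and at neither dose against DMSO of the same time.

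Genes of sphingolipid and cholesterol handling had the highest median by role at 200 nM 24 h, 0.66 over 4 genes. Between the DMSO libraries their median was larger, 0.82, and within 48 h it was -0.06 with the lower dose and 0.15 with the higher. PSAP encodes the precursor of the saposins, which present sphingolipids to their hydrolases (NCBI Gene ID 5660, chromosome 10 from 73576040 to 73611132 in hg19). Its level in DMSO, 100 nM and 200 nM was 146.68, 185.06 and 267.96 FPKM at 24 h and 240.83, 241.06 and 314.90 FPKM at 48 h. PSAP was higher at 200 nM than in DMSO at both times, by 0.86 and 0.39, and past 1.5-fold at 24 h. NPC2 carries cholesterol in the lumen and hands it to NPC1 in the membrane. NPC2 (NCBI Gene ID 10577, chromosome 14 from 74946643 to 74960084 in hg19) had 183.01, 288.62 and 326.07 FPKM in DMSO, 100 nM and 200 nM at 24 h and 362.92, 266.59 and 410.91 at 48 h. It was low in DMSO 24 h, and at 48 h the 100 nM library was the low one, so that 100 nM gave 0.65 at 24 h and -0.44 at 48 h. NPC1 differed from its partner, with 41.01, 36.33 and 41.84 FPKM at 24 h and 79.02, 84.66 and 79.79 at 48 h in the same order. Every 48 h library was near 80 and every 24 h library near 40, with changes of at most 0.17 in size by dose. ASAH1, the acid ceramidase, changed by 0.36 and 0.50 at 24 h.

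The membrane proteins LAMP1 and LAMP2, the cation channel MCOLN1 and GRN, the precursor of the granulins, were not called against DMSO of the same time or between the DMSO libraries. GRN was among the genes called at 48 h against DMSO 24 h. LAMP1, a major glycoprotein of the lysosomal membrane, had 78.32, 78.85 and 84.84 FPKM in DMSO, 100 nM and 200 nM at 24 h and 78.26, 82.61 and 89.43 at 48 h. It was level across the DMSO libraries and a little higher at 200 nM at each time, by 0.11 and 0.19. All 4 genes were above 0 in all 4 PCI-24781 comparisons, and the largest of these changes was 0.57, in GRN at 200 nM 24 h.

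The V-ATPase subunits differed more between 200 nM and DMSO at 24 h than between the DMSO libraries. ATP6V0D1, a subunit of the membrane sector (NCBI Gene ID 9114, chromosome 16 from 67471917 to 67515089 in hg19), had 29.34, 32.91 and 45.11 FPKM in DMSO, 100 nM and 200 nM at 24 h and 32.91, 33.00 and 32.74 at 48 h. ATP6V1A, the catalytic subunit (NCBI Gene ID 523, chromosome 3 from 113465866 to 113530905 in hg19), had 11.01, 11.92 and 17.38 FPKM at 24 h and 12.48, 11.85 and 15.49 at 48 h, in the order DMSO, 100 nM, 200 nM. Both were highest at 200 nM 24 h, and for ATP6V0D1 the other 5 libraries lay close together. Their changes at 200 nM 24 h were 0.60 and 0.61, just past the threshold, and ATP6V1H, a regulatory subunit, was at 0.33. In DMSO 48 h against DMSO 24 h, the 3 subunits differed by 0.16, 0.17 and 0.02. Scaled by median-of-ratios factors, ATP6V0D1, ATP6V1A and NEU1 were at 0.54, 0.55 and 0.56 at 200 nM 24 h, below 1.5-fold, which left 5 of the 35 genes called (14.3%), close to the 11.1% of all genes under this scaling.

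Of the autophagy genes, GABARAPL1 moved the most in the whole set. It encodes a member of the ATG8 family, which is joined to lipid on the autophagosome membrane (NCBI Gene ID 23710, chromosome 12 from 10365489 to 10375727 in hg19). From DMSO through 100 nM to 200 nM its level was 8.56, 20.57 and 27.96 FPKM at 24 h and 27.52, 23.14 and 31.23 FPKM at 48 h. DMSO 24 h stood far below the other 5 libraries. Against that library its change was 1.17 with the lower dose, 1.60 with the higher and 1.58 in DMSO 48 h, and with the pseudocount of 1 it alone of the 35 genes passed 2-fold in these comparisons, beside 1.35%, 4.47% and 2.49% of genes tested. With a pseudocount of 0.1, TFEB also passed 2-fold at 200 nM 24 h (1.12) and in DMSO 48 h (1.05), and CTSH at 200 nM 24 h (1.01). Within 48 h the changes of GABARAPL1 were -0.24 and 0.18.

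MAP1LC3B encodes LC3B, the ATG8 protein most used to follow autophagosomes. It had 41.66, 45.22 and 62.49 FPKM in DMSO, 100 nM and 200 nM at 24 h and 58.20, 55.37 and 66.87 at 48 h. The 200 nM library was the highest at each time, and the change at 24 h, 0.57, fell just short of the threshold. MAP1LC3B has a near-identical copy, MAP1LC3B2, with which reads can be shared, so its values are uncertain. SQSTM1 encodes p62, a receptor that brings ubiquitin-marked cargo to autophagosomes and is itself degraded there. In DMSO, 100 nM and 200 nM it had 173.80, 137.71 and 190.53 FPKM at 24 h, and 269.56, 320.04 and 267.26 at 48 h. Like CTSD and NPC1, SQSTM1 was higher in all 3 libraries at 48 h than in any at 24 h, and no dose was called within a time. The same held for CTSA, CTSB, TPP1, GAA, ULK1 and WIPI1. ULK1, the kinase that starts autophagy, and WIPI1, which binds lipid on the forming membrane, were called between the DMSO libraries, at 0.67 and 0.94, and at neither dose against DMSO of the same time. ATG5, ATG7 and BECN1, of the conjugation machinery and the lipid kinase complex, lay within 0.22 of 0 in all 5 comparisons.

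**Figure D3:**
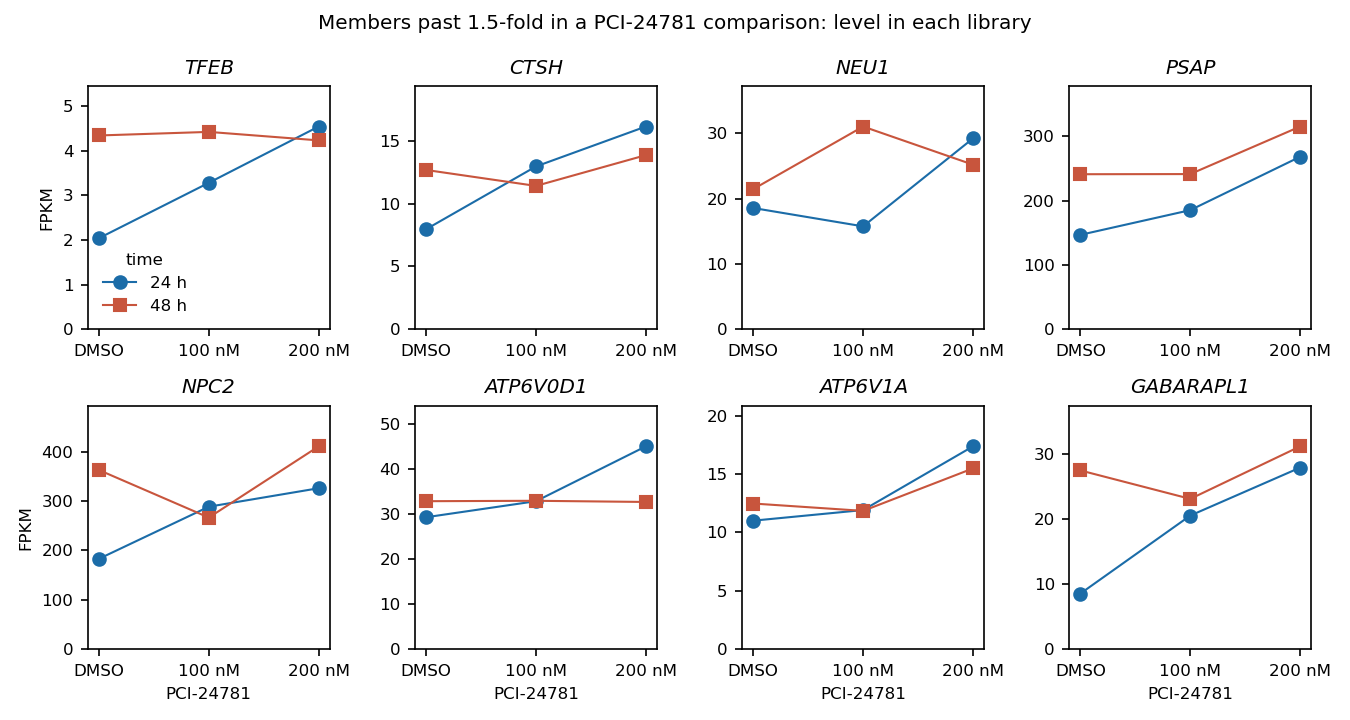
FPKM (vertical axis, from 0) of the 8 genes past 1.5-fold against DMSO of the same time, in DMSO, at 100 nM and at 200 nM PCI-24781 (horizontal axis), with 1 library per point and lines joining libraries of 1 time. GABARAPL1, TFEB and CTSH climb from DMSO to 200 nM at 24 h (8.56 to 27.96, 2.04 to 4.54 and 7.97 to 16.15), while ATP6V0D1 is level in DMSO and at both doses at 48 h (32.74 to 33.00).

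Promoters were read for the letters that TFEB and TFE3 are known to prefer, after 8 of the 35 genes were seen to be higher at 200 nM 24 h. The element is known to be shared by many lysosome genes. Its share among the 35 therefore describes the kind of gene picked and does not bear on their changes. The motifs were CACGTG, the E-box core, and TCACGTGA, the longer form that contains it, and each reads the same on both strands. RefSeq promoters (GRCh38.p14, 250 bases before to 50 after the start site) were found for 28 of the 35 genes, with 34 start sites. The genes with no entry were ASAH1, ATP6V1A, ATP6V1H, CTSB, HEXA, LAMP2 and PSAP. CACGTG was present in 7 of the 34 promoters (20.6%) and in 7.26% of all 35116, and TCACGTGA in 5 (14.7%) and in 0.980% of all. The genes with CACGTG were NEU1, CTSD, LAMP1, ATP6V0D1, GAA, MCOLN1 and CTSA, and all but NEU1 and CTSD held the longer form. In the promoters found for the other genes of the pathway, 227 start sites of 154 genes, CACGTG was in 15.9% and TCACGTGA in 7.05%. A match describes the letters and is not a binding site.

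Stretches of 100 bases from the 7 promoters with CACGTG are shown 5′ to 3′ on the strand of the gene, with the motifs in capitals. They end at the base before the start site, except that of NEU1, which runs from 176 to 77 bases before it. ATP6V0D1 and NEU1 were called at 200 nM 24 h, GAA and CTSD between the DMSO libraries and at neither dose against DMSO of the same time, and CTSA, MCOLN1 and LAMP1 in none of these comparisons.
ATP6V0D1 (chr16:67481158-67481257, strand -): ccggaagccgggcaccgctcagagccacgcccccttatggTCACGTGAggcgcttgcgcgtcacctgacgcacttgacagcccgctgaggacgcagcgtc
NEU1 (chr6:31862898-31862997, strand -): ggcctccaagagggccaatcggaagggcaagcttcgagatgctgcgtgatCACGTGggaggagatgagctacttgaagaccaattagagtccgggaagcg
GAA (chr17:80101481-80101580, strand +): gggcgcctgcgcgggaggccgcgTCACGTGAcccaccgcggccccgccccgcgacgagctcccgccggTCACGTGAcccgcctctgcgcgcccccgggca
CTSD (chr11:1763928-1764027, strand -): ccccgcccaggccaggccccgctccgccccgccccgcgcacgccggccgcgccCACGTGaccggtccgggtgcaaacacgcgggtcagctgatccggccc
CTSA (chr20:45891235-45891334, strand +): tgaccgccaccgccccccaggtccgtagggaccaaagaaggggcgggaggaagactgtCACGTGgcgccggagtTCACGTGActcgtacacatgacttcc
MCOLN1 (chr19:7522524-7522623, strand +): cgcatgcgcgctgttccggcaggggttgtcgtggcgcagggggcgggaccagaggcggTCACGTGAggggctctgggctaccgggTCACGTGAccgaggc
LAMP1 (chr13:113297139-113297238, strand +): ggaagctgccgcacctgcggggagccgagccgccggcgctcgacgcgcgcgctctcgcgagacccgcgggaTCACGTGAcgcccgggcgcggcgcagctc
The longer motif occurs at 2 places in GAA (77 and 32 bases before the start site), MCOLN1 (42 and 15) and LAMP1 (29 and 2, the latter running past the stretch shown), and in ATP6V0D1 it begins 60 bases before. LAMP1, which changed little, held CACGTG 6 times, the most of the 28 genes. The promoters found for GABARAPL1, NPC2, CTSH and TFEB, which were called at 200 nM 24 h, do not hold these letters within the 300 bases read, which says no more than that.

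Other genes of the pathway were followed in 7 lists, 204 genes of which 196 had sufficient expression at 200 nM 24 h. There, 23 were higher (11.7%, beside 12.5% of all genes) and 4 lower (2.04%, beside 7.58%), and the median was 0.14. At 100 nM 24 h, 6 were higher (3.08%, beside 5.54% of all genes) and 2 lower (1.03%, beside 1.25%) of 195. At 48 h, 1 of 194 was higher at 100 nM (TSC2, at 0.63), or 0.515% beside 0.504% of all genes, and 1 of 197 at 200 nM (LAMP3), or 0.508% beside 1.53%. In each, 0 were lower, beside 1.75% and 0.463%. Between the DMSO libraries, 21 of 194 were higher (10.8%, beside 8.49%) and 2 lower (1.03%, beside 1.94%). The share of higher genes at 200 nM 24 h was thus close to that of all genes.

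Of 40 further hydrolases and activators tested, 7 were higher (17.5%) and 2 lower (5.00%) at 200 nM 24 h, beside 12.5% and 7.58% of all genes, with a median of 0.17. LGMN, the asparagine-specific protease legumain, had 17.04, 32.18 and 53.67 FPKM in DMSO, 100 nM and 200 nM at 24 h and 24.99, 22.91 and 30.39 at 48 h. LIPA, the acid lipase that frees cholesterol from its esters, had 38.04, 61.36 and 104.90 FPKM at 24 h and 63.98, 52.26 and 94.58 at 48 h in that order. Both rose with each dose at 24 h, and LIPA was again high at 200 nM 48 h. Their changes at 200 nM 24 h were 1.60 and 1.44, and FUCA1, a fucosidase, followed at 1.14. ARSB, a sulfatase, and NAAA, an amidase that hydrolyses N-acylethanolamines, were lower there, at -0.90 and -0.81. LIPA (0.74) and FUCA1 (0.77) were also called higher between the DMSO libraries and NAAA lower (-0.64), while LGMN (0.53) and ARSB (0.01) were not called.

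Of 30 lysosomal membrane proteins and transporters, 6 of the 30 tested were higher, beside 12.5% of all genes, and 0 lower at 200 nM 24 h, with a median of 0.27. LAMP3 led at 1.28 but was scarce, with 0.34 FPKM in DMSO 24 h and 2.26 at 200 nM 24 h. It was the called gene at 200 nM 48 h too (0.73, from 0.53 to 1.53 FPKM). In both comparisons LAMP3 passed the minimum of 1 FPKM only through the 200 nM library. The ion channel genes TMEM175 and TPCN1 followed at 1.08 and 0.95, and both were also called between the DMSO libraries (0.59 and 0.96). Of 17 other V-ATPase subunits, 2 were higher, ATP6V1E2 (0.81) and ATP6V0A1 (0.79), and 0 lower, beside 7.58% of all genes. The share of higher subunits, 11.8%, was close to the 12.5% of all genes. The median of these subunits was 0.33 at 200 nM 24 h, with 15 of the 17 above 0, and 0.13 between the DMSO libraries. ATP6V0A1 had 16.14, 21.09 and 28.73 FPKM in DMSO, 100 nM and 200 nM at 24 h and 19.32, 20.46 and 25.04 at 48 h, the 200 nM library being highest at each time.

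Among 26 genes that sort hydrolases to the lysosome, SORT1 was higher (0.65) and VPS33A lower (-0.62) at 200 nM 24 h, 3.85% each, beside 12.5% and 7.58% of all genes, with a median of 0.12. Of 39 other genes of autophagosome formation and fusion, 4 were higher (10.3%, close to the 12.5% of all genes). The share lower was 2.56% (1 gene), beside 7.58% of all genes, and the median was 0.12. MAP1LC3C, a scarce LC3 gene, had 0.81, 2.11 and 3.85 FPKM at 24 h in DMSO, 100 nM and 200 nM, a change of 1.42 at the higher dose. It passed the minimum of 1 FPKM in that comparison only through the 200 nM library. ATG2A and RB1CC1 were at 0.81 and 0.62. MAP1LC3C (0.70) and RB1CC1 (0.62) were also called between the DMSO libraries, and ATG2A (0.49) was not. VAMP8, a SNARE protein of vesicle fusion, went the other way, with 58.83, 38.74 and 27.30 FPKM at 24 h and 57.35, 64.33 and 42.40 at 48 h. It was lowest at 200 nM at each time, by -1.08 and -0.43, and the DMSO libraries were alike.

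None of 18 autophagy receptors was called at 200 nM 24 h, beside 12.5% of all genes higher and 7.58% lower. Between the DMSO libraries 4 were higher (22.2%, beside 8.49% of all genes), BNIP3 (0.82), OPTN (0.80), FKBP8 (0.73) and BNIP3L (0.69), named here after their values were seen. Of 26 genes of nutrient signalling at the lysosome, 3 were higher at 200 nM 24 h (11.5%, close to the 12.5% of all genes). None was lower, beside 7.58% of all genes, and the median was 0.13. SESN3, a sestrin that restrains mTORC1, had 2.01, 5.45 and 6.91 FPKM at 24 h and 5.55, 4.18 and 6.47 at 48 h in the order DMSO, 100 nM, 200 nM. As for GABARAPL1, DMSO 24 h was the low library, and against it the changes were 1.10 and 1.39 with the doses at 24 h and 1.12 in DMSO 48 h. PPARGC1A (0.68) and LAMTOR2 (0.66) were the other 2 genes called at 200 nM 24 h. PPARGC1A was also called between the DMSO libraries (0.71), and LAMTOR2 was not (0.43).

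**Figure D4:**
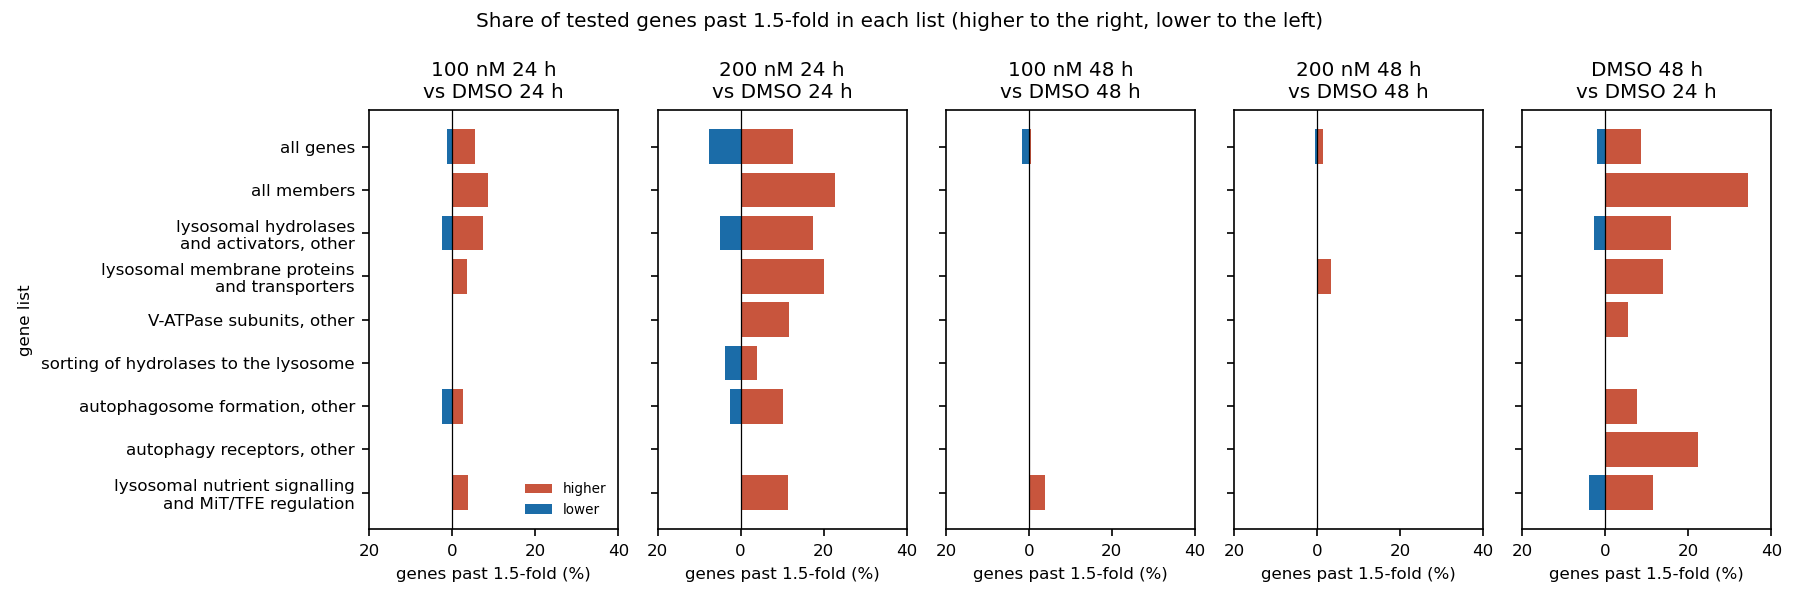
Percentage of tested genes past 1.5-fold (horizontal axis, higher to the right and lower to the left) in each gene list (rows) in the 5 comparisons. For the 35 members the bar is longest in DMSO 48 h against DMSO 24 h (34.3%) and next at 200 nM 24 h (22.9%), beside 8.49% and 12.5% of all genes.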

How the data were processed

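The authors deposited gene-level FPKM, rounded to 2 decimals, for 1 library of each condition. The submitters' processing notes name Bowtie2, RSEM and hg19 without versions, and any filter is not given in the sources used here. Gene names came by NCBI Gene ID from a RefSeq table (GRCh38.p14), which held 16585 of the 16623 genes. The 35 members and the pathway lists were chosen with earlier results of these data known. Differences in log2(FPKM + 1) were taken within each time and between the DMSO libraries. Values in every library are given for members past 1.5-fold in a PCI-24781 comparison and for TFEB, TFE3, LAMP1, CTSD, SQSTM1 and MAP1LC3B, and up to 3 genes in each direction are named per pathway list. Depth was estimated from genes with 1 transcript of 500 to 1500 bases and GENCODE release 29 lengths, and is approximate. Alternatives were a 2-fold threshold, pseudocounts of 0.1 and 0.01, TPM, median-of-ratios factors and other filters. Python 3.11.15, numpy 2.4.6, pandas 2.3.3, scipy 1.17.1 and matplotlib 3.10.9 were used.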

Additional observations from a re-analysis of the deposited data

Results flagged for a closer look

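In 3 of the 35 genes, 100 nM PCI-24781 gave a call at 24 h and a change of opposite sign beyond 0.1 at 48 h. GABARAPL1 was at 1.17 at 24 h and -0.24 at 48 h on the log2 scale, NPC2 at 0.65 and -0.44, and CTSH at 0.64 and -0.14. The pattern was not particular to these genes, since 631 of all 780 genes called at 100 nM 24 h (80.9%) showed it, or 5.50% of those tested, beside 8.57% of the 35. At 200 nM, none of the 8 called among the 35 showed it. Over all genes it was seen there in 98 of the 2346 called (4.18%), or 0.840% of those tested. Each value compares 1 library with 1 library, and the difference between the times was not tested. Between the DMSO libraries, all 3 genes were higher at the later time, by 1.58, 0.98 and 0.61. The comparisons at 200 nM use the same 2 DMSO libraries, and the cause of the pattern was not tested.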

How the results depend on the processing

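No paired analysis was run, and each group holds 1 library. At 2-fold, 1 of the 35 genes (2.86%) was higher with each dose at 24 h and 1 in DMSO 48 h, GABARAPL1 each time. The 2-fold share of all genes was 1.35% with the lower dose, 4.47% with the higher and 2.49% between the DMSO libraries. Rescaling by median-of-ratios factors left 5 higher at 200 nM 24 h (14.3%, close to the 11.1% of all genes). The pseudocounts, TPM and the filters moved no count of the 35 genes by more than 1.5 times and no median by more than 0.1, but the pseudocounts and TPM moved some counts over all genes by more. At 100 nM 48 h, 58 genes were higher with the pseudocount of 1, 134 with 0.1 and 102 in TPM. Among single genes, 10 of 260 values moved by more than 0.1 and 0 changed sign after a call. TFEB gave most of these, with 1.12 at 200 nM 24 h with a pseudocount of 0.1.

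The reference library moved the counts most. With DMSO of the other time, an alternative chosen after the data were seen, 0 genes were higher with either dose at 24 h, 4 (100 nM) and 3 (200 nM) were lower, and the medians were -0.29 and 0.02. At 48 h, 12 were higher at 100 nM and 16 at 200 nM, with medians of 0.45 and 0.46. The cause was not tested. Counting intervals from the approximate depth reached below 1.5-fold for CTSH at 100 nM 24 h, for NEU1, ATP6V0D1 and ATP6V1A at 200 nM 24 h and for CTSH and GAA between the DMSO libraries. Variation between cultures cannot be judged.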
